A study of Mus musculus with 20 samples.

Results

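Glycolytic enzymes of mouse embryonic fibroblasts were described here through 10 listed genes: the hexokinases Hk1 and Hk2, glucose phosphate isomerase Gpi1, the phosphofructokinase subunits Pfkl and Pfkp, the aldolase Aldoa, triose phosphate isomerase Tpi1, phosphoglycerate kinase Pgk1, the enolase Eno1 and the lactate dehydrogenase subunit Ldha. Members were all probe sets, the groups of short oligonucleotides that each measure a transcript, whose annotation names 1 of these genes and no other. Of the 10 genes, 8 had such a probe set. Gpi1 and Eno1 had none and were not analysed here. The 8 genes gave 18 probe sets out of 22626 on the array without controls, and all 18 passed the filter on low signal, as did 13576 probe sets in all. They cover 6 steps between glucose and lactate: hexokinase, phosphofructokinase, aldolase, triose isomerase, phosphoglycerate kinase and lactate dehydrogenase.

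The study compared primary fibroblast cultures that lack E2F4, a transcription factor which binds cell cycle gene promoters together with pocket proteins, with cultures of the wild type. Fibroblasts were grown from 5 E2F4 null embryos, with 2 cultures each, and from 3 wild type embryos, with 3, 3 and 4 cultures. All embryos were taken at 13.5 days post coitum, and each of the 20 cultures was measured on 1 single-colour Affymetrix array. The labels used here give no strain, sex, litter, passage or oxygen tension, and they do not say which part of E2f4 was removed. The embryo was the replicate, so values are means over the cultures of an embryo and an SD is the spread between embryos.

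Glycolysis splits glucose into pyruvate in the cytosol and gains ATP without oxygen, and lactate dehydrogenase turns pyruvate into lactate so that the cofactor NAD+ is restored. Hexokinase and phosphofructokinase catalyse irreversible early reactions, while aldolase, triose isomerase and phosphoglycerate kinase run near equilibrium and are made in large amounts. In cultured fibroblasts many of these genes are known targets of the hypoxia-inducible factor HIF-1, which binds the core motif ACGTG or GCGTG, and E2F factors bind variants of TTCCCGC and TTGGCGC.

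Promoters of 3 genes are shown because these genes lie in the lower part of the pathway, were measured at high signal and differ in the motifs they hold. The sequences are the 250 bases before the annotated start from the RefSeq table of build GRCm38.p6, written 5′ to 3′ on the strand of the gene, with matches to any of the 4 motifs on either strand in capitals. They are for Pgk1 chrX:106186850-106187099 on the plus strand, for Tpi1 chr6:124814159-124814408 on the minus strand, and for Ldha chr7:46845554-46845803 on the plus strand, which is the first of the Ldha windows.
Pgk1: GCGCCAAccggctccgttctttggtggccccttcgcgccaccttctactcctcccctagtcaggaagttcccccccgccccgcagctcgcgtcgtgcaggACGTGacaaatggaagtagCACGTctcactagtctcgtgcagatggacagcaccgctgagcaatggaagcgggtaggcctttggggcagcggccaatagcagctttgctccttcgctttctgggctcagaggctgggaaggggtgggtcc
Tpi1: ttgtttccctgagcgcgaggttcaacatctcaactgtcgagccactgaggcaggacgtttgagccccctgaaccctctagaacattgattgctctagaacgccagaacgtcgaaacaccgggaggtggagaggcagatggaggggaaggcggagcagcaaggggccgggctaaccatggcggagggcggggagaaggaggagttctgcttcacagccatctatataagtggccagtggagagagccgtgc
Ldha: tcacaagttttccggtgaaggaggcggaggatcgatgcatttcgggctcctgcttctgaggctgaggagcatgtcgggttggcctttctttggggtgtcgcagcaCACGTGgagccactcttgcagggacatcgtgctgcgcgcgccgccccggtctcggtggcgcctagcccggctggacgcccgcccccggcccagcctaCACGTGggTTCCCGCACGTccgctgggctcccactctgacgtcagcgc
The Pgk1 stretch holds ACGTG on the gene's strand 150 bases before the start and again on the other strand 131 bases before it, and TTGGCGC on the other strand at its far end, 250 bases before the start. The Ldha stretch holds ACGTG 5 times, counting both strands, of which 4 matches form a pair of palindromes (CACGTG). The remaining one overlaps TTCCCGC, which begins 40 bases before the start. The Tpi1 window holds none of the 4 motifs, which says only that these letters are not in it.

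All 10 listed genes had a promoter window in the RefSeq table, 16 windows in all, each of 300 bases, with 50 bases after the start included. ACGTG or GCGTG stood in 12 of the 16, and in 43.8% of all 32851 windows of the same length. Windows of Aldoa and of Eno1 overlap in part, so some matches were counted in more than 1 window. By gene, 8 of 10 had such a match in at least 1 window, and Tpi1 and Gpi1 had none. That count by gene has no share over all genes beside it. TTCCCGC or TTGGCGC stood in 4 of the 16 windows, those of Hk2, Pfkp, Pgk1 and Ldha, and in 6.81% of all windows. Taken singly, ACGTG was in 19.6% of all windows, GCGTG in 32.4%, TTCCCGC in 4.6% and TTGGCGC in 2.45%. These matches are letters in a window, and binding was not measured on these arrays.

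The deposited signals had a 2% trimmed mean of 500.2 on every array, and array medians ran from 135 to 146 in E2F4 null cultures and from 137 to 145 in wild type cultures. No arrays were identical, and arrays correlated across probe sets at r = 0.985 to 0.991 within an embryo and 0.972 to 0.989 between embryos. The single E2f4 probe set had 157, 167, 156, 155 and 196 signal units in the 5 null embryos, against 209, 212 and 221 in the 3 wild type embryos. The 2 groups do not overlap, with all null embryos lower and a log2 difference of -0.35 (limma adjusted p = 0.367), so the gene named in the labels did not pass the test across all probe sets. A probe set outside the removed part would check nothing. Wild type embryo 2 stood apart from the other embryos in the signal of genes of G2 and mitosis: the median of 55 such probe sets lay 0.51 (log2) below the mean of the 8 embryos there, and between -0.15 and 0.23 in the other 7.

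The signal of most glycolytic enzyme probe sets was slightly higher in E2F4 null than in wild type fibroblasts, and none passed the test. Of the 18 probe sets, 15 had a higher mean in the null, with a median difference of 0.17 on the log2(signal + 16) scale, and differences ran from -0.08 to 0.34. Over all 13576 probe sets tested, 49.2% were higher in the null and the median difference was -0.003. With limma on embryo means and Benjamini-Hochberg adjustment over all probe sets, 0 of the 18 were called at an adjusted p under 0.05, the smallest adjusted p being 0.293, and the share called over all probe sets was 0.0%. At an unadjusted p under 0.05, 9 of the 18 were higher and 0 were lower in the null, beside 4.32% and 4.57% of all probe sets. The 5 null embryos all lay above the 3 wild type embryos for 6 of the 18, beside 2.99% of all probe sets, and all below them for 0, beside 3.48%. All 10 null cultures lay above all 10 wild type cultures for 1 probe set, of Tpi1, beside 0.169%. Probe sets of 1 gene measure the same transcripts, so the 18 stand for 8 genes and are not independent. The genes were chosen with earlier results of these data known. Counts above the shares of all probe sets are therefore no independent support for a difference.

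**Figure D1:**
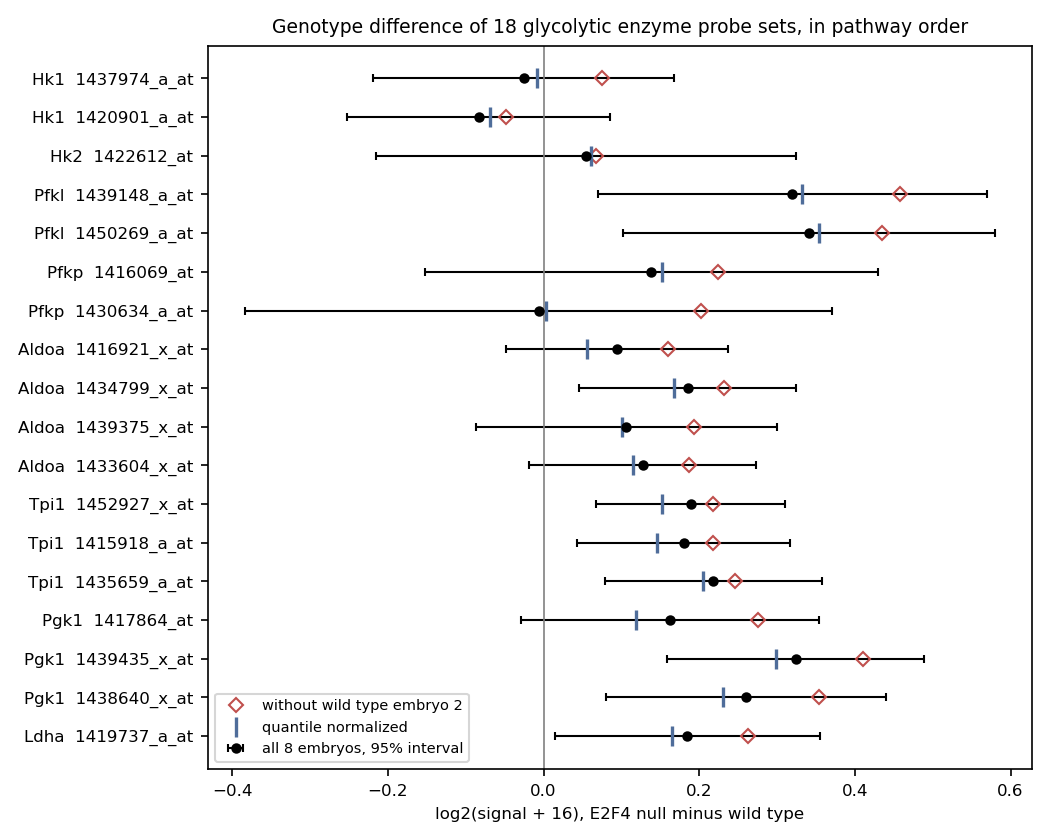
Difference between E2F4 null and wild type embryo means for the 18 probe sets, in pathway order from top to bottom, on the log2(signal + 16) scale. Black points are limma estimates from all 8 embryos with 95% intervals, blue bars the same after quantile normalization, and red diamonds the estimates without wild type embryo 2; 15 of 18 black points lie right of 0, and those left of it are both Hk1 probe sets and 1 of Pfkp.

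Signal differs between probe sets for reasons of probe design as well as of RNA amount, so levels of different genes or isoforms were not set against each other. Each probe set's own level is given instead, and differences are between embryos for the same probe set. Names ending in _a_at denote probe sets shared by transcripts of 1 gene, and those ending in _x_at hold probes that may also match other sequences. All 4 Aldoa probe sets, 1 of Tpi1 and 2 of Pgk1 are of the second kind, and enzymes of this pathway have processed pseudogenes, so their signal may include related transcripts.

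**Figure D2:**
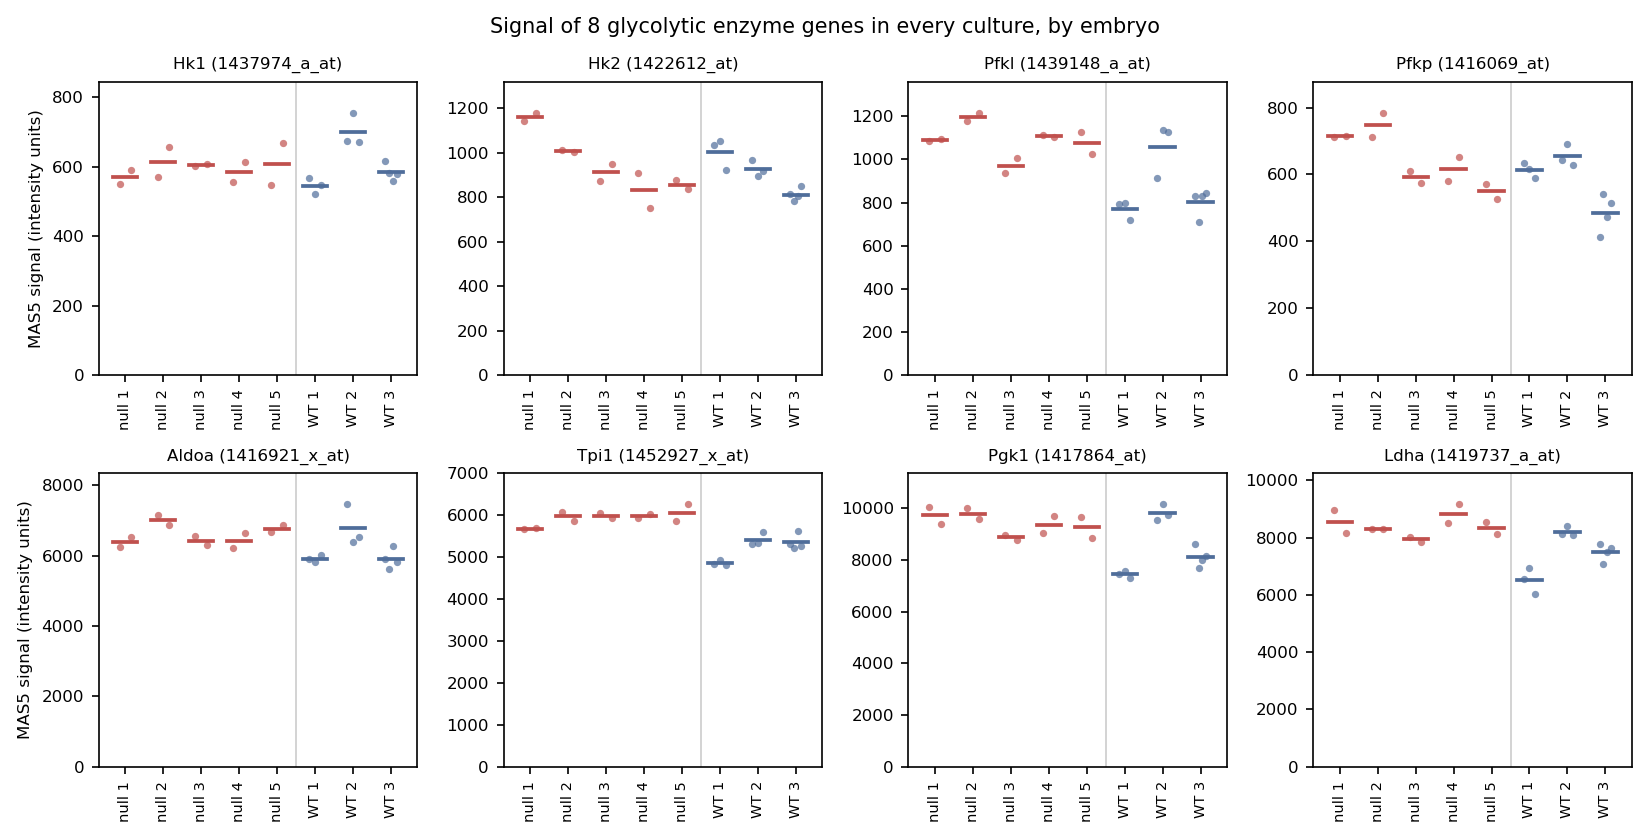
MAS5 signal (linear intensity units, axes from 0) of 1 probe set for each of the 8 measured genes, the one of highest mean signal, in every culture. Points are cultures and horizontal lines embryo means, with E2F4 null embryos (red) left of wild type embryos (blue); for Tpi1 every null culture lies above every wild type culture, and for Hk1, Hk2 and Pfkp the groups overlap widely.

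Hexokinase, which phosphorylates glucose on entry and traps it in the cell, showed no difference in a single direction. The Hk1 gene encodes the isoform found in most tissues. Its probe set 1437974_a_at had 571, 614, 604, 585 and 607 in the null embryos, against 545, 700.2 and 584 in wild type. The wild type values lie on both sides of the null ones. The mean was 596 ± 18.04 (SD, n = 5) in the null and 609.9 ± 80.7 (n = 3) in wild type, a difference of -0.03 (log2) with a 95% interval of -0.22 to 0.17 and a limma adjusted p = 0.950. The other Hk1 probe set, 1420901_a_at, had a mean of 377 ± 24.0 in the null and 404 ± 17.8 in wild type, and its difference of -0.08 had an interval of -0.25 to 0.08.

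Hk2 encodes the inducible hexokinase that is abundant in muscle and in many tumours. It had 1162, 1008, 912, 832 and 857 in the null embryos, against 1006, 927 and 812 in wild type. The first null embryo was high and the groups overlap. The difference was 0.05 (log2; 95% interval -0.22 to 0.32, limma adjusted p = 0.916). Of the 3 hexokinase probe sets, 1 lay above 0, and the median difference of the step was -0.03. The intervals reach down to -0.25 for Hk1 and up to 0.32 for Hk2, so the data do not show that hexokinase signal was equal in the genotypes.

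Phosphofructokinase commits fructose 6-phosphate to glycolysis as a tetramer of subunits that different genes encode. Pfkl, the liver-type subunit, had the 2 largest of the 4 differences at this step. Probe set 1439148_a_at had 1091, 1197, 971, 1108 and 1076 in the null embryos, against 771, 1059.7 and 804 in wild type. The null embryos all lay above wild type embryos 1 and 3, while embryo 2 of wild type lay above the lowest null embryo. Probe set 1450269_a_at had 703, 849, 638, 706 and 722 in the null, against 521, 646 and 539 in wild type. It repeats that order, with wild type embryo 2 again inside the null range. The means of the first were 1089 ± 80.6 in the null and 878 ± 158 in wild type, 24.0% higher in the null (log2 0.32, SE 0.11, limma adjusted p = 0.455). Those of the second were 724 ± 77.3 in the null and 569 ± 67.8 in wild type, 27.2% higher (log2 0.34, SE 0.11, limma adjusted p = 0.403).

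Pfkp, the platelet-type subunit, is common in proliferating and tumour cells, and its probe sets differed in direction by a margin that quantile normalization removed. Probe set 1416069_at had 714, 748, 592, 616 and 549 in the null embryos, against 614, 654 and 486 in wild type. The groups overlap, with a difference of 0.14 (log2; 95% interval -0.15 to 0.43, limma adjusted p = 0.787). Probe set 1430634_a_at had 258, 266, 230.3, 216 and 201 in the null, against 225, 318 and 181 in wild type. Both the highest and the lowest of these 8 values are of wild type embryos. Its difference was -0.01 (95% interval -0.38 to 0.37, limma adjusted p = 0.993), and 0.0033 after quantile normalization. Within the step the differences of Pfkl and Pfkp were not tested against each other.

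Aldolase cleaves fructose 1,6-bisphosphate into the 2 triose phosphates, and Aldoa encodes the form of muscle and of most cultured cells. All 4 of its probe sets had a higher mean in the null, by 0.09 to 0.19 (log2). Probe set 1434799_x_at had 4720.2, 5197, 4611, 4936 and 5047 in the null embryos, against 4203, 4595 and 4156 in wild type. The groups do not overlap, though the lowest null embryo and wild type embryo 2 lie side by side. The means were 4902 ± 238 in the null and 4318 ± 241 in wild type, 13.5% higher in the null (SE 0.06, limma adjusted p = 0.427). For the probe set of highest signal, 1416921_x_at, the values were 6381, 7008, 6426, 6427 and 6766 in the null, against 5911, 6783 and 5896 in wild type. There the wild type embryo 2 lay above 4 of the 5 null embryos. Means of 1439375_x_at were 3168 ± 201 in the null and 2948 ± 331 in wild type. Means of 1433604_x_at were 2776 ± 94.8 in the null and 2547 ± 199.8 in wild type. In both the groups overlap, and neither reached an unadjusted p under 0.05.

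Triose phosphate isomerase interconverts the trioses so that all carbons of the sugar pass on, and Tpi1 was the gene whose groups were parted most often, by all 3 of its probe sets. Probe set 1452927_x_at had 5675, 5975, 5988, 5981 and 6058 in the null embryos, against 4857, 5420.3 and 5353 in wild type. Probe set 1415918_a_at had 5685, 5593, 5749.7, 6015 and 5642 in the null, against 4617, 5333 and 5260.1 in wild type. In both the lowest null embryo stands above the highest wild type embryo, and in both wild type embryo 1 is the lowest. Probe set 1435659_a_at had 3258, 3388, 3606, 3429.9 and 3721 in the null, against 2851, 3113 and 3021 in wild type. The order is the same again.

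In means, 1452927_x_at had 5935 ± 149 in the null and 5210.3 ± 308 in wild type, 13.9% higher in the null (log2 0.19, SE 0.05, limma adjusted p = 0.369). Probe set 1415918_a_at was 13.2% higher in the null (limma adjusted p = 0.437) and 1435659_a_at 16.2% higher (limma adjusted p = 0.367). The 3 log2 differences, 0.18 to 0.22, were within 0.04 of each other. They were the closest among the genes with 3 or 4 probe sets, the span being 0.09 for Aldoa and 0.16 for Pgk1.

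Phosphoglycerate kinase makes the first ATP of the pathway, and Pgk1 had the smallest adjusted p of the listed genes. Probe set 1439435_x_at had 7684, 8011, 7802, 7898 and 7548 in the null embryos, against 5526, 7052 and 6222 in wild type. The 5 null embryos lie close together and above all wild type embryos. The mean was 7789 ± 181 in the null and 6267 ± 764 in wild type, 24.3% higher in the null (log2 0.32, SE 0.07, 95% interval 0.16 to 0.49, limma adjusted p = 0.293). Probe set 1438640_x_at had 7337, 7365, 7374, 7592 and 8323 in the null, against 5736, 7207 and 6129 in wild type, 19.5% higher in the null (log2 0.26, SE 0.08, limma adjusted p = 0.402). Here the gap between null embryo 1 and wild type embryo 2 was small. Both of these Pgk1 probe sets are of the _x_at kind, whose probes may also match other sequences.

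The Pgk1 probe set of highest signal, 1417864_at, had 9726, 9782, 8865, 9365 and 9259 in the null, against 7435, 9809 and 8099 in wild type. Wild type embryo 2 was the highest of all 8 here, so this probe set did not part the groups as the other 2 did. Its difference was 0.16 (log2, SE 0.08, 95% interval -0.03 to 0.35, limma adjusted p = 0.62). Pgk1 lies on the X chromosome. Xist signal was low and Eif2s3y signal high in null embryos 2 and 3 and in wild type embryo 2, and the reverse held in the other 5 embryos, so the wild type embryo with the highest Pgk1 signal also differed from the other 2 in these sex-linked genes. For 1417864_at null embryos 2 and 3 were the highest and the lowest of the null. By 1439435_x_at they had 8011 and 7802, in a null range of 7548 to 8011. By 1438640_x_at they had 7365 and 7374, in a null range of 7337 to 8323. The part of embryo sex in these values was not tested.

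Lactate dehydrogenase regenerates NAD+ by reducing pyruvate, and Ldha encodes its muscle-type subunit. Its 1 probe set had 8546, 8282, 7931, 8831 and 8330.2 in the null embryos, against 6509.5, 8207 and 7499 in wild type. Of wild type, embryo 2 lay above null embryo 3 and below the other 4. The mean was 8384 ± 333 in the null and 7405 ± 853 in wild type, 13.2% higher in the null, or 0.18 on the log2 scale (95% interval 0.01 to 0.36, limma adjusted p = 0.517).

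Along the pathway the median difference per step was -0.03 for hexokinase, 0.23 for phosphofructokinase, 0.12 for aldolase, 0.19 for triose isomerase, 0.26 for phosphoglycerate kinase and 0.18 for lactate dehydrogenase. From aldolase on, all 11 probe sets were higher in the null. At the first step of the pathway 1 of 3 was. The 11 are also the members of mean signal 2000 or more, so place in the pathway and signal height cannot be told apart. Differences between steps were not tested.

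The order of the wild type embryos recurred across the genes, while that of the null embryos varied. Wild type embryo 2 had the highest wild type signal in 17 of the 18 probe sets, the exception being Hk2. Embryo 1 was the lowest of wild type in 11 and embryo 3 in 7. All 5 null embryos lay above both wild type embryos 1 and 3 in 12 of 18 probe sets. Wild type embryo 2 lay above the lowest null embryo in 12, above the median null embryo in 8 and above all null embryos in 4. This embryo was singled out after the values were seen. These counts have no share over all probe sets beside them, so they do not show an order particular to the enzymes. As median deviations from the mean of the 8 embryos, the null embryos had 0.07, 0.10, -0.01, 0.09 and 0.05 (log2), against -0.18, 0.04 and -0.18 in wild type. Thus embryo 2 of wild type lay within the range of the null embryos and the other 2 below it.

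**Figure D3:**
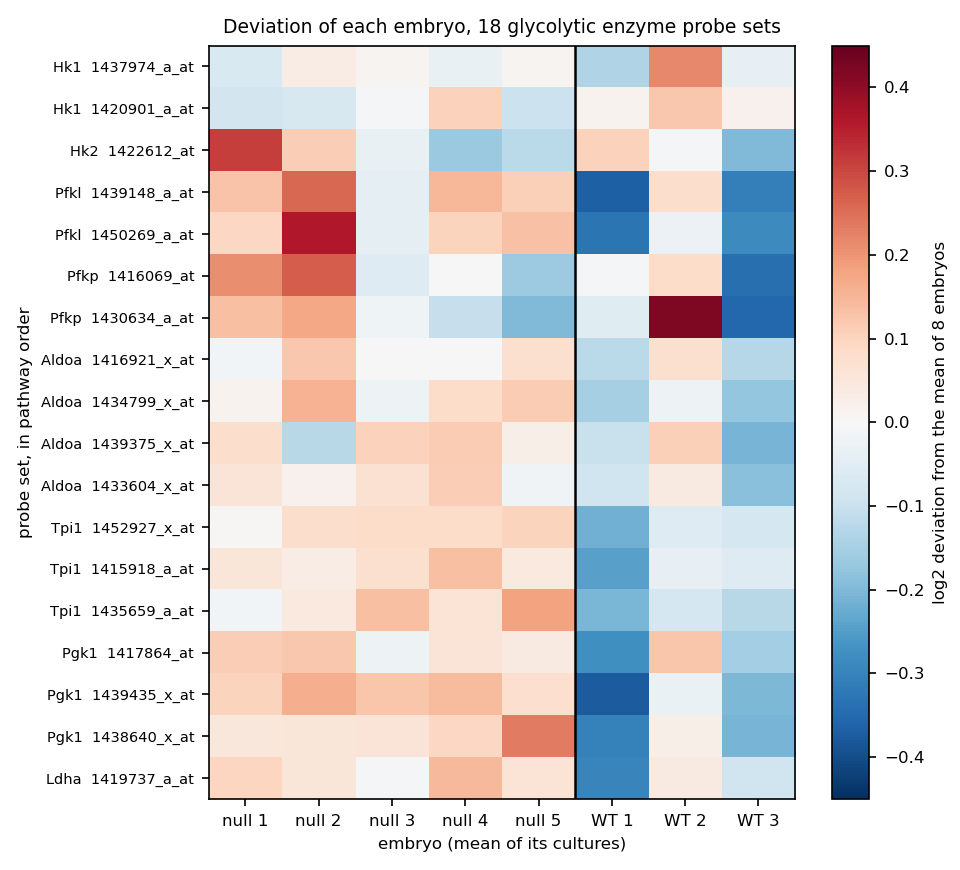
Log2 deviation of each embryo from the mean of the 8 embryos for each of the 18 probe sets, in pathway order, with E2F4 null embryos left of the black line and wild type embryos right of it. Red is above and blue below the mean; wild type embryos 1 and 3 are blue or near 0 from phosphofructokinase down, with median deviations of -0.18 each, while wild type embryo 2 is mixed, at 0.04.

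Without wild type embryo 2 the median difference was 0.22, 17 of 18 probe sets were higher in the null and 13 reached an unadjusted p under 0.05, while limma still called 0 (smallest adjusted p = 0.0656). Without wild type embryo 1 the median difference was 0.12 and 5 probe sets reached that p. Without embryo 3 the median was 0.15 and 6 did, again with 0 called. Over all probe sets 5.14% were higher at that p without embryo 2, 2.76% without embryo 1 and 5.47% without embryo 3. With embryo 2 left out, 6 of all probe sets were called. The differences of Hk1 1437974_a_at and Pfkp 1430634_a_at changed sign without embryo 2, to 0.08 and 0.20, and neither was called with or without it.

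Differences between embryos of 1 genotype were tested over their cultures with limma's F test. Among null embryos 3 of the 18 probe sets passed, beside 18.3% of all probe sets: Hk2 (adjusted p = 0.0172), Pfkp 1416069_at (0.0246) and Pfkl 1450269_a_at (0.0434). That share is near the background, and without a variance trend in the fit 0 of the 18 passed. Among wild type embryos 14 of 18 passed, beside 46.7% of all probe sets, with the smallest adjusted p for Pgk1 1417864_at (9.34e-05) and 1438640_x_at (0.00021), Pfkp 1430634_a_at (0.000584) and Ldha (0.00115). Those that did not pass were Hk1 1420901_a_at, Aldoa 1434799_x_at and 1433604_x_at, and Tpi1 1435659_a_at. The median SD between embryos was 0.07 (log2) among null and 0.16 among wild type embryos, beside 0.13 and 0.15 over all probe sets. Both F tests use 10 cultures, but over 5 null embryos of 2 cultures and 3 wild type embryos of 3 or 4, so their counts are not on a common footing, and the difference in spread between genotypes was not tested.

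Signal height moved with these results. The members of mean signal 2000 or more, a limit chosen after the values were seen, were the 11 probe sets of Aldoa, Tpi1, Pgk1 and Ldha. All 11 were higher in the null, with a median of 0.18, 7 at an unadjusted p under 0.05 and 6 with groups that do not overlap. Over all 1832 probe sets of that signal the median difference was 0.03, 60.9% were higher in the null, 11.2% were higher at an unadjusted p under 0.05 and 7.64% had all null above all wild type embryos, each more than over all probe sets. After quantile normalization the median of these 1832 was 0.01, and for the 18 members 16 were higher, with a median of 0.15, and 9 at an unadjusted p under 0.05. The 99th percentile of array signal ran from 9786 to 11384 in null and from 9699 to 11022 in wild type cultures.

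Gapdh, the enzyme between triose isomerase and phosphoglycerate kinase, is on this array as control probe sets. Its 5′ control averaged 19079.9 ± 1375 in null embryos and 17312 ± 2068 in wild type embryos (log2 0.14), and the middle and 3′ controls differed by 0.10 and 0.09. The groups overlap in each. Controls of Actb, a cytoskeletal actin, differed by -0.02 to 0.00. The ratio of the 3′ to the 5′ Gapdh control, a measure of RNA integrity, ran from 0.685 to 0.749 in null and from 0.716 to 0.764 in wild type cultures. As embryo means it was 0.708, 0.708, 0.714, 0.708 and 0.725 in the null, against 0.735, 0.747 and 0.741 in wild type. This ratio was thus lower in all 5 null embryos than in all 3 wild type embryos. Of the 18 enzyme probe sets, 6 parted the groups. The Actb ratio overlapped, at 1.11 to 1.2 in null and 1.13 to 1.16 in wild type embryos. The part of RNA integrity in the differences was not tested.

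Other genes of glycolysis went both ways. Of 20 further enzyme genes, 14 were on the array by a probe set of 1 symbol, and 7 passed the filter with 12 probe sets, of which 6 were higher and 6 lower in the null, with a median of -0.001. None was called. The mutase Pgam1, which follows phosphoglycerate kinase, averaged 5036 ± 185 in the null and 4525 ± 280.0 in wild type (log2 0.16, limma adjusted p = 0.483). Pkm, the pyruvate kinase, had 7175 ± 238 in the null and 6771 ± 722 in wild type (log2 0.09, limma adjusted p = 0.748). All 3 probe sets of Bpgm, the enzyme that diverts a glycolytic intermediate to 2,3-bisphosphoglycerate, were lower in the null at an unadjusted p under 0.05, with differences of -0.37, -0.27 and -0.24 and limma adjusted p of 0.369 to 0.509. The Bpgm probe set with the largest difference, 1415865_s_at, averaged 465 ± 21.1 in the null and 611 ± 99.7 in wild type. Its lowest wild type embryo, at 496, lay below the highest null embryo, at 498. Pfkm, the muscle-type phosphofructokinase subunit, differed by -0.01. Pkm and Pfkm were chosen for their place in the pathway, after the values were seen.

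Among genes of glucose entry and lactate export, 6 of 10 probe sets were higher in the null, with a median of 0.07 and 0 called. Slc2a1, the basal glucose transporter GLUT1, had 1843 ± 136 in the null and 1571 ± 72.2 in wild type by probe set 1434773_a_at, with no overlap (log2 0.23, limma adjusted p = 0.423). Its other probe sets differed by 0.16 (1426599_a_at, with overlap) and 0.12 (1426600_at), neither at an unadjusted p under 0.05. Slc16a3, the lactate exporter MCT4, had a difference of 0.58, but embryos of each genotype were spread widely, at 98.5 to 374 in the null and 77.5 to 219 in wild type. Bsg, the chaperone of lactate transporters, differed by -0.10.

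Among regulators of flux, 6 of 13 probe sets were higher in the null, with a median of -0.04 and 0 called. Pfkfb3, whose product makes the activator of phosphofructokinase, had 89.8 ± 9.45 in the null and 67.8 ± 7.71 in wild type (log2 0.34, limma adjusted p = 0.473). Pdk1, a kinase that switches off pyruvate dehydrogenase, had 219 ± 38.0 in the null and 166 ± 1.82 in wild type by 1423747_a_at (log2 0.36, limma adjusted p = 0.483). In both of these probe sets all null embryos lay above all wild type embryos. For Pfkfb3 the wild type mean lies under the filter limit of 69.3, so it passed only through its null cultures. Its lack of overlap is therefore no support for a difference. The other Pdk1 probe set, 1423748_at, differed by 0.14 (limma adjusted p = 0.792). Txnip, an inhibitor of glucose uptake, differed by -0.28 and -0.26 in its 2 probe sets. Hif1a, the oxygen-regulated HIF-1 subunit, had 3 probe sets without a common direction, at -0.13, -0.04 and 0.08.

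Genes that oxidise pyruvate in mitochondria were mostly higher in the null too: 11 of 12 probe sets, with a median of 0.12 and 0 called. Of the 12, 3 were higher at an unadjusted p under 0.05, beside 4.32% of all probe sets. All null embryos lay above all wild type embryos for 2, of Dlat and Cs, beside 2.99%. Dlat, a subunit of pyruvate dehydrogenase, had 1049 ± 52.9 in the null and 900.3 ± 50.6 in wild type by 1426264_at (log2 0.22, limma adjusted p = 0.403). Its other 2 probe sets differed by 0.18 each. Citrate synthase, Cs, differed by 0.13, 0.11 and 0.07 in its 3 probe sets. In the pentose phosphate pathway and other branches, 10 of 20 probe sets were higher and 10 lower, with a median of 0.01, and in gluconeogenesis 2 of 3 were higher, with 0 called in either. The branch probe set of smallest p was 1438627_x_at of Pgd, at -0.27 with overlap, and the other 3 of that gene lay between -0.03 and 0.04.

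HIF target genes outside glycolysis were higher in the null in 21 of 27 probe sets, with a median of 0.13, but 0 reached an unadjusted p under 0.05 and the embryos differed within genotypes. Their median deviation was 0.04, 0.10, 0.06, -0.02 and -0.04 in the null embryos, against -0.07, 0.14 and -0.27 in wild type. Wild type embryo 2 was thus the highest of all and embryo 3 the lowest. The probe set of smallest p was of Ndrg1, at 0.26, and the other 4 of that gene differed by 0.14 to 0.26. Genes of G2 and mitosis were higher in the null in 54 of 55 probe sets, with a median of 0.14 and 1, of Kif22, at an unadjusted p under 0.05 (0.36, its other 2 probe sets at 0.22 each). Their median deviation was -0.15, -0.12, 0.13, 0.20 and 0.20 in the null embryos, against -0.01, -0.51 and 0.23 in wild type. Wild type embryo 3 was thus the highest of all, and embryo 1 lay within the range of the null embryos. Wild type embryo 2, the lowest of all in these genes, was the highest of wild type in the enzymes. The part of culture growth or oxygen in the enzyme signals was not tested.

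**Figure D4:**
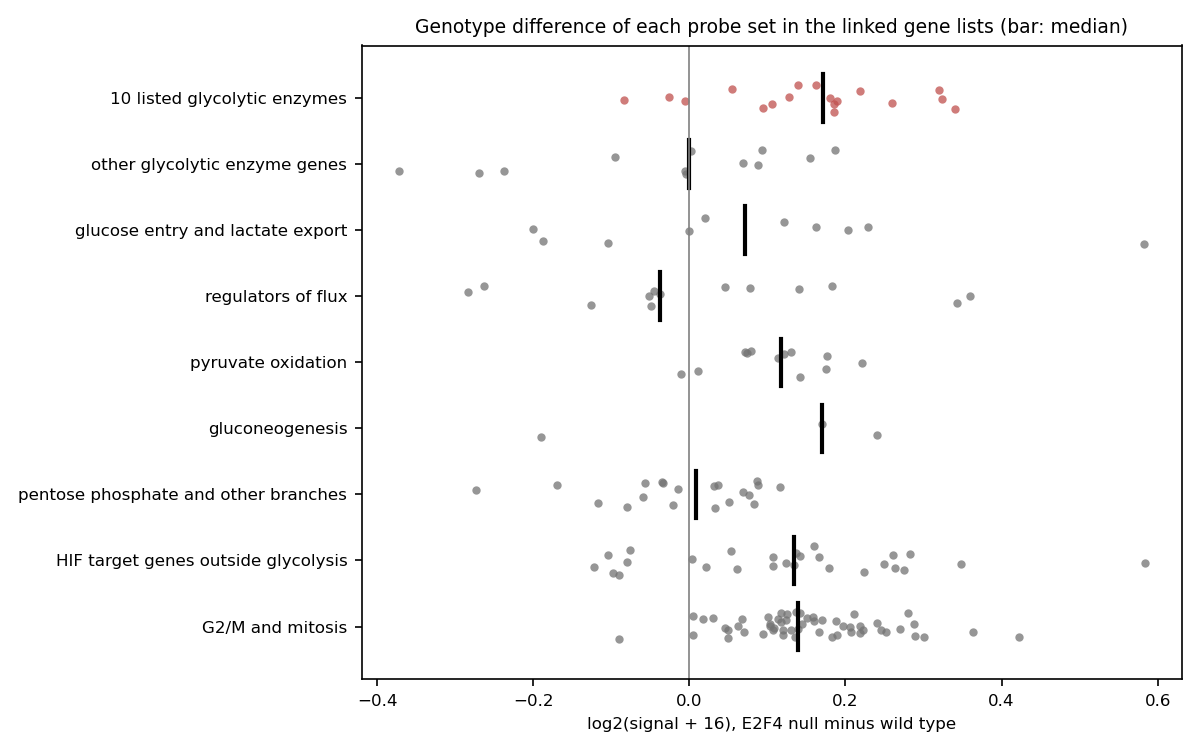
Genotype difference (E2F4 null minus wild type, log2(signal + 16)) of every probe set in the 18 listed enzyme probe sets (red) and in 8 linked gene lists (grey), 1 point for each probe set, with a bar at the median of the list. The listed enzymes have a median of 0.17 and the other glycolytic enzyme genes one of -0.001.

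The summed signal of 30 fibroblast marker probe sets ran from 186544 to 216767 in null embryos and from 205003 to 207616 in wild type embryos, with 9 of 30 higher in the null. Of 16 macrophage marker genes 11 passed the filter, not Ptprc or Itgam, and the summed signal of their 16 probe sets ran from 2194 to 6246 in the null and from 2553 to 4171 in wild type, with 14 of 16 higher in the null. Of 15 skeletal muscle marker genes 6 passed, not Myod1 or Myog, and the sum of their 7 probe sets ran from 582 to 3995 in the null and from 706 to 4526 in wild type. Acta1 alone had up to 3143 in the null and up to 3870 in wild type, so this sum mostly follows 1 gene where it is highest. Median deviations of the list were 1.09 and 0.61 (log2) in null embryos 1 and 2, and 0.17 in wild type embryo 2. Elsewhere they were -0.84 to -0.10. The sum was above 2000 in null embryos 1 and 2 and wild type embryo 2. These 3 embryos also had the highest signal of both Pfkp probe sets and of Pgk1 1417864_at, but of no other listed enzyme probe set. That match was seen after the fact and has no share over all probe sets beside it. The same 3 embryos also had the highest mean array signal, at 719.6, 725.5 and 721.3, with null embryo 4 next at 712. Their median deviations in genes of G2 and mitosis were the lowest, at -0.15, -0.12 and -0.51. The match is thus not particular to muscle markers. In cartilage, endothelial, epithelial and neural lists 4 of 7, 1 of 4, 2 of 2 and 5 of 12 probe sets were higher in the null, and 0 erythroid markers passed the filter. Of the cartilage probe sets 2 were higher at an unadjusted p under 0.05, and for 1 of them, of Col2a1, all null embryos lay above all wild type embryos, with a log2 difference of 0.33. The other, of Col9a1, averaged 83.6 in the null and 57.8 in wild type. The wild type mean lies under the filter limit of 69.3, so Col9a1 passed only through its null cultures. In a culture a larger share of a cell type and more RNA per cell cannot be told apart, and the part of other cell types in the enzyme signals was not tested.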

How the data were processed

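Messenger RNA of 20 fibroblast cultures was measured on 1-colour Affymetrix arrays. The deposited values are intensities on a linear scale, 1 for each probe set and array, produced by the authors using MAS5, as the submitters' processing notes say. The MAS5 settings, such as its scaling target, were not given in the sources used here, nor were detection calls. The table held 22690 probe sets, 64 of them controls. In the platform annotation 20380 of the others had 1 gene symbol, 691 had several and 1555 were unnamed; gene identifiers led to current symbols in the RefSeq table of GRCm38.p6 for 20351 of them. Since the trimmed means were equal, no further scaling was done, and a change common to all genes is hidden, and the number of arrays limits the precision. No genome build is given for the array.

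Intensities were converted to log2(signal + 16), which understates changes of low signals, then averaged within each embryo. Probe sets with a mean signal under the 40th percentile (69.3) were dropped. The genotype difference (E2F4 null minus wild type) was fitted to the 8 embryo means in R 4.3.3 with limma 3.58.1, using lmFit and eBayes with a variance trend and two-sided tests, and embryos within a genotype with limma's F test over cultures; both were adjusted by Benjamini-Hochberg over all 13576 probe sets. The embryo and culture were read from the numbers in the sample titles and the submitters' design text. Nothing says that embryos came from separate litters, so p-values of the genotype fit measure only the spread between these embryos. Those of the F test are set against the spread between cultures of an embryo.

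Same-numbered embryos of the 2 genotypes deviated together (r = 0.13, 0.62 and 0.35 over probe sets for numbers 1, 2 and 3), but the labels do not say that the number marks a litter or day, and null embryo 5 correlated at 0.60 with wild type embryo 3. The embryo number was therefore also fitted as a block. Other alternatives were the pseudocount (4, 64), quantile normalization, the filter on low signal (none, 60th percentile), median centring, 1 probe set per gene, no variance trend, cultures fitted with a random embryo term, as independent samples or limited to the first 2, the culture number as a block, and each embryo or culture left out. The genotype fit to embryo means and the F test among null embryos were tried on simulated data. The F test among wild type embryos and the alternatives were not.

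The genes and lists were chosen with earlier results of these data known. All member probe sets and E2f4 are named, with at most 4 genes of each linked enzyme, transport and regulator list and at most 2 of the others, by smallest unadjusted p; Pkm, Pfkm, the Gapdh and Actb controls and sex-linked genes are named outside this rule. Marker lists are given as counts and sums, with a few genes named for not passing the filter. Acta1 is named for its part in a sum, and Col2a1 and Col9a1 for their unadjusted p. Lists were described by counts and medians with no set test. A comparison of isoform protein sequences was not run.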

Additional observations from a re-analysis of the deposited data

Results flagged for a closer look

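Among the 5 null embryos, the highest and the lowest were each compared with its neighbour, as the share of the group's range taken by that gap, in 50 probe sets, 18 of them of the listed enzymes. Dixon's 95% critical value for 5 samples is 0.71, and 3 probe sets passed it; chance passes about 1 in 20. Groups of 3 wild type embryos were not looked at in this way. Tpi1 1452927_x_at had null embryo 1 lowest, at 5675 signal units where the other null embryos had 5975 to 6058 (gap 0.794 of the range), still above the highest wild type embryo. Pgk1 1438640_x_at had null embryo 5 highest, at 8323 where the others had 7337 to 7592 (0.759). E2f4 had null embryo 5 highest, at 196 where the others had 155 to 167 (0.717), still below the lowest wild type embryo.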

How the results depend on the processing

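The median difference of the glycolytic enzyme probe sets stayed between 0.12 and 0.22 (log2) over all 21 alternatives, and 0 members were called in 20 of them. Taking the 20 cultures as independent samples, which counts repeats of an embryo as replicates, called 9 of 18 and 938 of all probe sets. With the embryo as a random block the smallest member adjusted p was 0.0517, with 119 of all probe sets called. The count at an unadjusted p under 0.05, 9 of 18, was 3 of 8 with 1 probe set per gene, beside 3.99% of all. That setting tests fewer probe sets. When an embryo was left out the count was 5 to 13, beside 2.76% to 5.47% of all probe sets. With the embryo number as a replicate block it was 8, with a median of 0.17 and 0 called; null embryos 4 and 5 have no partner and drop out, and no call changed. The culture number as a replicate block called 0 (smallest adjusted p 0.0742), and culture numbers did not pair (mean r -0.02 and -0.05). Of the within-genotype tests, the count among null embryos, 3, was 0 without a variance trend, for which the cause was not tested. The count among wild type embryos, 14, was 8 of 8 with 1 probe set per gene and 9 to 14 when a culture number was left out, with fewer samples. Leaving a culture out of the null test could not be fitted, since it leaves 1 culture per embryo. The precision is limited by 5 and 3 embryos.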
